A study of Mus musculus with 6 samples.

Results

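Transcripts of the STAT5 factors, the PIM kinases, the CIS and SOCS feedback inhibitors and the cytokine oncostatin M were examined in BCR-ABL1-transformed mouse pre-B cells that carried Blnk or an empty vector. The 10 genes were Stat5a, Stat5b, Pim1, Pim2, Pim3, Cish, Socs1, Socs2, Socs3 and Osm, each read by the brightest probe annotated to that symbol alone, and all 10 were among the 19938 genes measured. The cells of every sample were labelled as Blnk knockout, as transformed by BCR-ABL1, and as coming from Balb/c mice aged 4 weeks. In the 3 Blnk samples the cells had been transduced with Blnk (also called Slp65), and in the 3 pMIG samples with pMIG, a retroviral vector that carries GFP. GFP-positive cells were sorted on day 5 after transduction, and total RNA of each sample was read on 1 Affymetrix array. The labels give neither how BCR-ABL1 was introduced nor whether samples are separate cultures or mice. The p-values therefore cover only the variation among these 6 samples, and that variation may be technical.

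STAT5A and STAT5B are closely related transcription factors that Janus kinases phosphorylate below cytokine receptors such as that for IL7, the growth factor of early B cells. BCR-ABL1, the kinase made by the Philadelphia chromosome, activates them without a cytokine. Among the genes that active STAT5 is known to switch on are the PIM kinases, which promote survival and are controlled mainly by their amount, and CIS and the SOCS proteins, which bind cytokine receptors or Janus kinases and shut the signal down. BLNK is an adaptor that the kinase SYK phosphorylates when the pre-B cell receptor signals, and that then gathers enzymes such as BTK and PLCG2. The comparison of Blnk with pMIG samples asks whether the transcripts of this STAT5 group move as one when Blnk is added.

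STAT dimers bind the palindromic motif TTCNNNGAA, which reads the same on both strands, and it was searched in RefSeq windows of 250 bases before to 50 after each transcription start (build GRCm38.p6). Of 32851 such windows of all genes, 8.3% held the motif and 0.457% held it 2 or more times. Windows were at hand for 8 of the 10 genes, not for Socs2 and Osm, and Stat5a, Stat5b and Pim1 had 2 windows each. Cish held 2 matches and Socs3 held 1, and the windows of the other 6 genes held none. The sites are shown because they are the only matches in the group, with the fixed letters of each match in capitals, each with 30 bases on the strand of its gene.
Cish, chr9:107296654-107296683, plus strand: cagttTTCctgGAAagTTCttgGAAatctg
Socs3, chr11:117969501-117969530, minus strand: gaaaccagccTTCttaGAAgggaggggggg
The Cish matches covered bases 1 to 20 after the annotated start, and the Socs3 match lay at bases -154 to -146. The windows of Socs3, Stat5a and Stat5b lay inside the annotated spans of these genes, so sequence before their outer ends was not searched. A match describes letters and is not a measured binding site, and the absence of one says only that these letters are not in the window. For the 2 PIM genes whose transcripts rose, the 250 bases before the annotated start (the first of 2 for Pim1) were as follows.
Pim2, chrX:7878056-7878305, plus strand: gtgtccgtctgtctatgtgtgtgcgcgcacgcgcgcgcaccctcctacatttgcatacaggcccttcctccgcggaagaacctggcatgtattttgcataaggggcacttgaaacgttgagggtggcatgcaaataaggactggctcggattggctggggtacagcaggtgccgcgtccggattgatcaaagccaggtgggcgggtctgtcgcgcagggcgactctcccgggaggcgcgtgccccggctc
Pim1, chr17:29490535-29490784, plus strand: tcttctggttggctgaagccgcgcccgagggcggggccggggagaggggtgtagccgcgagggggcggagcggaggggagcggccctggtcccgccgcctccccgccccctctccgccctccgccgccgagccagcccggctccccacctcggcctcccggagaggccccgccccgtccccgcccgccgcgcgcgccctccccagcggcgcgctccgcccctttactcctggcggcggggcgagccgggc

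The arrays resembled each other closely. The median intensity was 69.0 to 70.0 on the Blnk arrays and 67.0 to 69.0 on the pMIG arrays, and the mean intensity of each of the 10 genes lay above these medians. Arrays of a group correlated at 0.9951 to 0.9969 across genes, which are not independent replicates, and arrays of different groups at 0.9942 or less. Blnk itself read 2714, 3342 and 3022 on the Blnk arrays, against 972, 926 and 1013 on the pMIG arrays. It was thus higher on every Blnk array (log2 fold change 1.64, adjusted p = 0.000101). The pMIG values lay above the array medians although the cells were labelled Blnk knockout, and the cause of this signal was not tested. The sources used here do not say which part of Blnk the probe reads. Of 13 pre-B markers, 2 rose, Blnk and Cd79a, a signalling chain of the receptor (0.31 on the log2 scale, adjusted p = 0.0468), and 1 fell, Vpreb1, a part of the surrogate light chain (-0.68, adjusted p = 0.00976). At an unadjusted p of 0.05, 5 of the 13 were higher and 4 lower, beside 8.91% and 6.32% of all genes. The 5 include Blnk, the transduced gene, so this count is not a result about the markers alone. Cd79a and Vpreb1 were named after their values were seen. Cd79a passed in none of the fits without 1 array (0.0678 without Blnk array 1 to 0.151 without pMIG array 3), and Vpreb1 missed the threshold without pMIG array 2 (0.0502) or pMIG array 3 (0.0688). Igll1, the other part of the surrogate light chain, read 9221 ± 222 with Blnk and 10485 ± 350 with pMIG (SD, n = 3), and Cd24a read 6319 ± 452 and 5616 ± 451, while Rag1, Rag2 and Ebf2, a relative of the B-lineage factor Ebf1, lay below the array medians.

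Transcripts of the group did not move as one. Pim2, Cish and Pim1 rose with Blnk, by 4.96-fold, 1.80-fold and 1.64-fold. None of the 10 fell. Stat5a, Stat5b, Pim3, Socs1, Socs2, Socs3 and Osm did not pass the test. Over all 19938 genes the same test called 3.61%, with 2.51% higher and 1.1% lower, at an adjusted p of 0.05 over all genes in limma. At an unadjusted p of 0.05, 4 of the 10 were higher and 0 were lower, while 8.91% of all genes were higher and 6.32% lower. The median log2 fold change of the 10 was 0.10, beside 0 for all genes, and 8 had a positive and 2 a negative value. In bulk RNA, more cells that express a gene and more RNA per cell cannot be told apart.

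**Figure D1:**
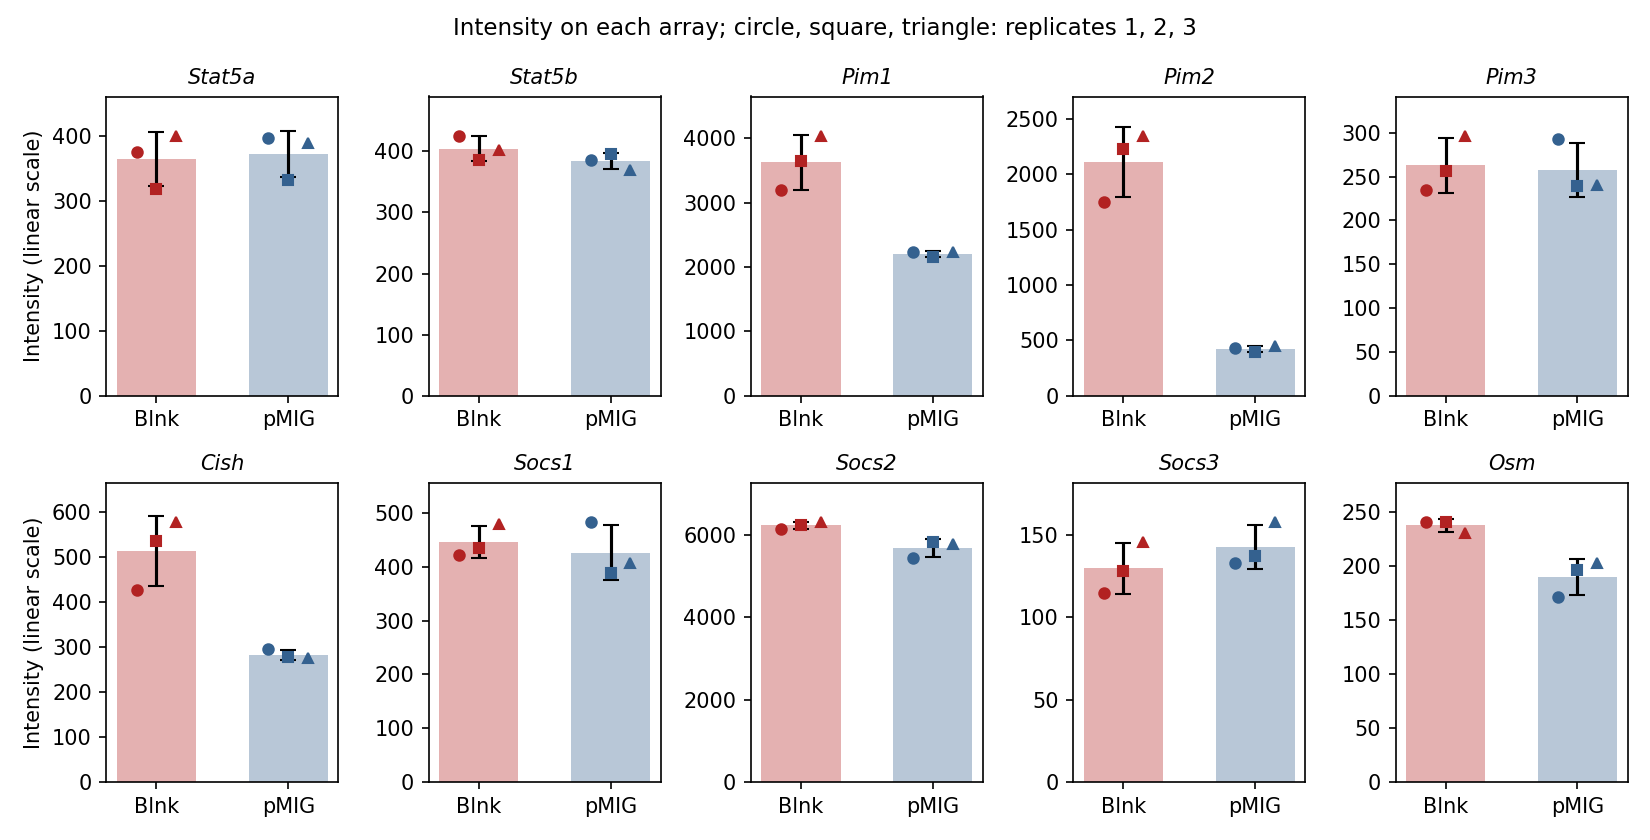
Intensity on a linear scale (vertical axes, each from 0) of the 10 genes on the 3 Blnk arrays (left bars) and 3 pMIG arrays (right bars). Bars are means, error bars are SD (n = 3), and symbols are single arrays. The groups lie apart for Pim1, Pim2, Cish, Socs2 and Osm, widest for Pim2, and overlap for the other 5 genes.

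The STAT5 factors themselves showed no change that passed. Stat5a read 375, 319 and 401 on the Blnk arrays, against 397, 332 and 389 on the pMIG arrays. The ranges overlapped nearly in full (log2 fold change -0.03, 95% confidence interval -0.29 to 0.22, adjusted p = 0.936). Stat5b, which neighbours Stat5a on chromosome 11, read 426, 386 and 402 on the Blnk arrays, against 386, 396 and 370 on the pMIG arrays. These ranges overlapped as well (0.08, interval -0.09 to 0.24, adjusted p = 0.703). Transcript levels say nothing of phosphorylation, the step that activates these proteins.

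Among the PIM kinases, which are serine and threonine kinases with overlapping substrates, Pim2 moved furthest. It read 1753, 2229 and 2352 on the Blnk arrays, against 427, 392 and 450 on the pMIG arrays. The lowest Blnk array was above the highest pMIG array. The log2 fold change of Pim2 was 2.31 (95% confidence interval 2.03 to 2.59, adjusted p = 6.82e-05), the 10th largest rise of all genes. Pim1, first known as a site of retroviral insertion in mouse lymphomas, read 3190, 3648 and 4041 on the Blnk arrays, against 2230, 2152 and 2238 on the pMIG arrays. Its groups were also apart, and its log2 fold change was 0.71 (interval 0.49 to 0.93, adjusted p = 0.00675). Pim3 read 235, 257 and 297 on the Blnk arrays, against 293, 239 and 241 on the pMIG arrays. The Pim3 ranges overlapped, and its log2 fold change was 0.03 (interval -0.24 to 0.30, adjusted p = 0.947). The upper end of the Pim3 interval lay below the lower ends of the Pim1 and Pim2 intervals.

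**Figure D2:**
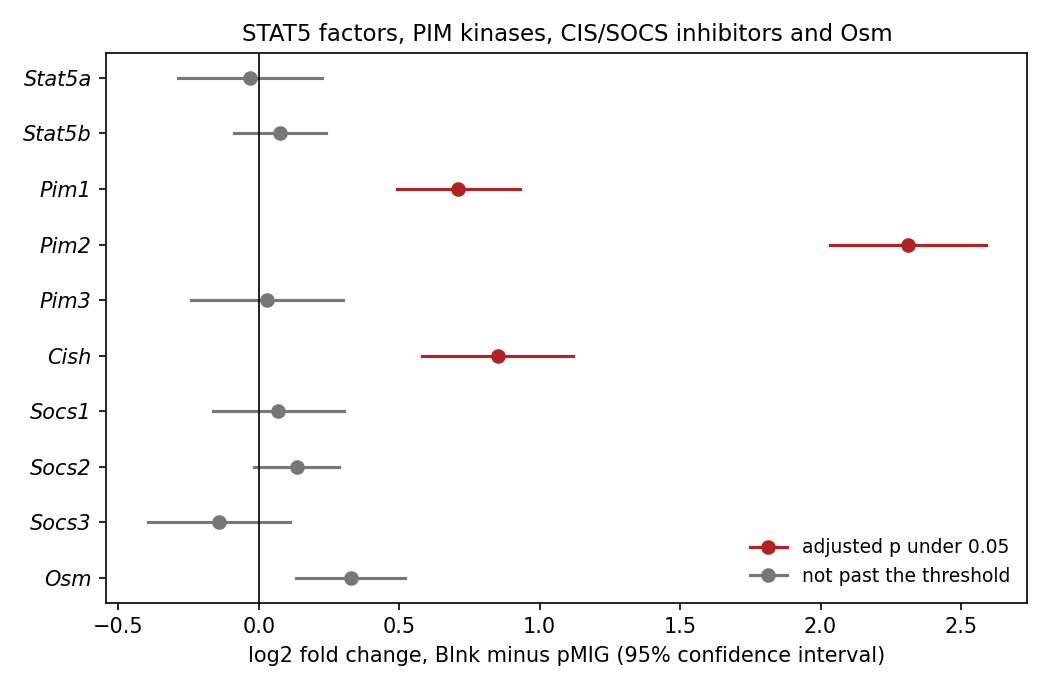
Log2 fold change, Blnk minus pMIG (horizontal axis), with 95% confidence intervals from limma for the 10 genes (rows). Pim2 at 2.31, Cish at 0.85 and Pim1 at 0.71 passed the adjusted threshold (red), and the intervals of Stat5a, Stat5b, Pim3, Socs1, Socs2 and Socs3 span 0.

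Of the feedback inhibitors Cish, Socs1, Socs2 and Socs3, only Cish passed. CIS, its product, competes with STAT5 for phosphorylated receptor chains. Cish read 427, 537 and 579 on the Blnk arrays, against 296, 278 and 275 on the pMIG arrays. Each Blnk array exceeded each pMIG array, with a log2 fold change of 0.85 (95% confidence interval 0.58 to 1.12, adjusted p = 0.00736). Socs1, whose product binds and inhibits Janus kinases, read 423, 436 and 480 on the Blnk arrays, against 484, 388 and 408 on the pMIG arrays. The highest of these 6 values was a pMIG array (log2 fold change 0.07, interval -0.16 to 0.30, adjusted p = 0.823).

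Socs2, which restrains growth hormone signalling and is a known STAT5 target, had 2 probes. The brighter Socs2 probe read 6134, 6231 and 6314 on the Blnk arrays, against 5434, 5812 and 5779 on the pMIG arrays. The groups were apart but close (log2 fold change 0.13, interval -0.02 to 0.29, adjusted p = 0.401). The second Socs2 probe read 836, 856 and 842 on the Blnk arrays, against 788, 809 and 824 on the pMIG arrays, a log2 fold change of 0.07. Socs3, best known as the brake on STAT3 signalling, also had 2 probes. The brighter Socs3 probe read 115, 128 and 146 on the Blnk arrays, against 133, 137 and 158 on the pMIG arrays. These ranges overlapped (-0.14, interval -0.39 to 0.11, adjusted p = 0.628). The second Socs3 probe read 66, 64 and 65 on the Blnk arrays, against 66, 45 and 62 on the pMIG arrays. Its log2 fold change was 0.19 (standard error 0.139), opposite in sign to that of the brighter probe. This second probe lay below the array medians, where small changes are hard to read.

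Osm encodes oncostatin M, a cytokine of the IL6 family whose gene STAT5 induces in blood cells. It read 241, 241 and 231 on the Blnk arrays, against 171, 196 and 203 on the pMIG arrays. All Blnk arrays were above all pMIG arrays, and the interval of the log2 fold change, 0.33, ran from 0.13 to 0.52. The adjusted p of Osm was 0.0902. Osm passed where dim genes were left out (adjusted p = 0.029), where 16 was added before log2 (0.0424) and where the variance prior followed intensity (0.0421). It did not pass in the other alternatives. Its adjusted p was 0.147 to 0.236 with an array left out and 0.236 with the replicate number as a block. In all, 5 of the 10 genes had groups that did not overlap, all with Blnk above, while 11.8% of all genes had Blnk above and 8.15% had Blnk below without overlap.

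Members of a family were then compared with each other through the difference of their log2 values within each array, in 10 pairs. Pim2 exceeded Pim1 by 1.60 in log2 fold change (pooled SD of the within-array difference 0.074, n = 3 per group) and Pim3 by 2.28 (SD 0.148). Pim1 exceeded Pim3 by 0.68 (SD 0.112). Cish exceeded Socs1 by 0.78 (SD 0.138), Socs2 by 0.72 (SD 0.167) and Socs3 by 0.99 (SD 0.141). In each of these 6 pairs the difference on every Blnk array was above that on every pMIG array, with a two-sided exact permutation p of 0.1, the smallest that 3 against 3 arrays allow, and 0.143 after adjustment over the 10 pairs. Socs2 exceeded Socs3 by 0.27 with the same p, but by 0.074 when all probes of a gene were averaged. The pairs Socs1 and Socs2, Socs1 and Socs3, and Stat5a and Stat5b overlapped between the groups, with exact p of 0.8, 0.3 and 0.4.

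The Blnk arrays were not equal for the genes that rose. Pim1, Pim2 and Cish had their lowest Blnk value on Blnk array 1 and their highest on Blnk array 3. Relative to the pMIG mean, Pim2 stood at 2.05, 2.40 and 2.48 on the log2 scale on Blnk arrays 1, 2 and 3, Cish at 0.59, 0.92 and 1.03, and Pim1 at 0.53, 0.73 and 0.87. Of all 500 genes that rose, 56.4% also had their lowest Blnk value on Blnk array 1, against 28% of all genes, and 47.6% had their highest on Blnk array 3, against 35.8% of all genes. The Blnk probe was likewise lowest on Blnk array 1, and highest on Blnk array 2. The part of these array differences in the fold changes was not tested.

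Leaving out single arrays moved 2 of the 3 calls. The log2 fold change of Pim2 ranged from 2.23 to 2.44 and passed with every array left out (adjusted p up to 0.00268). Pim1 ranged from 0.63 to 0.80 and did not pass without Blnk array 2 (adjusted p = 0.0537) or pMIG array 3 (0.0528). Cish ranged from 0.76 to 0.98 and did not pass without Blnk array 2 (0.0615) or pMIG array 3 (0.0633). With either of these arrays left out, Pim2 was the 1 gene of the 10 that passed.

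**Figure D3:**
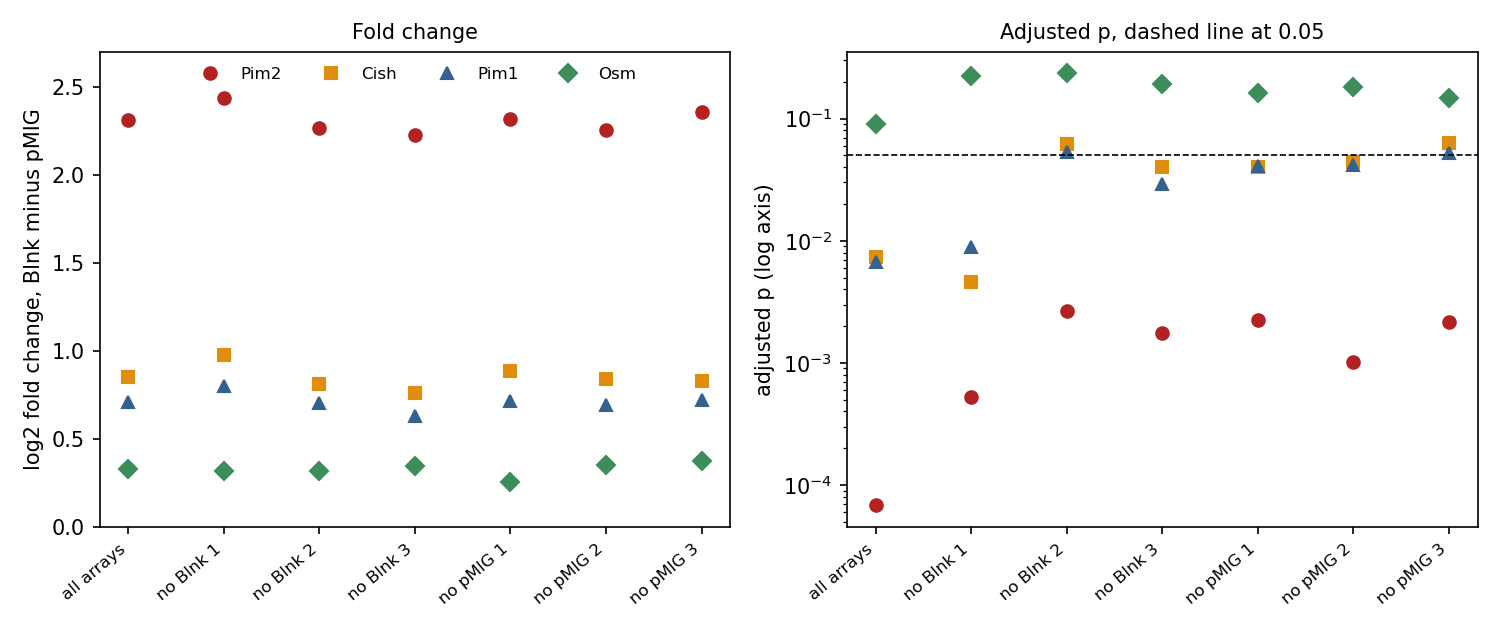
Log2 fold change, Blnk minus pMIG (left panel), and adjusted p on a log axis (right panel) of Pim2, Cish, Pim1 and Osm with all arrays and with each array left out (horizontal axes). Pim2 stays between 2.23 and 2.44 and below the dashed line at 0.05, while Pim1 and Cish lie just above it without Blnk array 2 or pMIG array 3.

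By a measure of likeness over the 6 arrays, the root mean square difference of log2 values set relative to the pMIG mean, the genes nearest to Pim2 among 10345 candidates were Ly6d, a surface marker of B-lineage cells (0.046), Ifi30, a lysosomal thiol reductase (0.073), and Cfp, the complement protein properdin (0.117). Those nearest to Pim1 were Unc93b1, which carries Toll-like receptors to endosomes (0.021), Btg1, an antiproliferative gene (0.039), and Cd2, an adhesion molecule (0.043). Those nearest to Cish were H2-Oa, a class II-like chain that restrains peptide loading (0.076), Acp5, an acid phosphatase (0.077), and Shisa5 (0.082). All 9 passed the test upward, which the likeness to a gene that rose largely fixes.

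Genes around STAT5 were read from lists of receptors, cytokines, kinases, inhibitors and targets. Of 18 measured chains of receptors that signal through STAT5, 5 rose and 0 fell, with a median log2 fold change of 0.02. At an unadjusted p of 0.05, 5 chains were higher and 1 was lower (8.91% and 6.32% of all genes). Il2ra (CD25), a chain of the IL2 receptor and itself a STAT5 target, read 1065 ± 161 with Blnk and 248 ± 25.3 with pMIG (SD, n = 3), a log2 fold change of 2.09 (adjusted p = 0.000131). Il2rb, another chain of that receptor, named after its value was seen, read 30.7 ± 3.51 and 29.3 ± 1.53, below the array medians. A further chain, Il2rg, was not among the measured genes. Il5ra, the specific chain of the IL5 receptor, read 105 ± 5.69 and 59.7 ± 2.89 (0.81, adjusted p = 0.0011). Csf2rb, the signalling chain shared by the receptors of IL3, IL5 and GM-CSF, rose by 0.58 on the log2 scale, and its close relative Csf2rb2 by 0.87, and a probe of one may read the other. Il4ra, named after its value was seen, rose by 0.57. Csf2rb did not pass without Blnk array 2 (0.057), Blnk array 3 (0.0593), pMIG array 1 (0.0504) or pMIG array 3 (0.0634), and Il4ra passed only without Blnk array 1 (0.0391), reaching 0.141 without pMIG array 3. The bright chain Il7r read 3501 ± 63.0 with Blnk and 3678 ± 70.7 with pMIG (-0.07, adjusted p = 0.678), and Crlf2, a chain of the TSLP receptor, stood at -0.04 (adjusted p = 0.892).

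Among 14 measured cytokines that signal through STAT5, 13 lay below the array medians, where small changes are hard to read. The exception, Flt3l, the ligand of the progenitor receptor FLT3, rose to 376 ± 36.6 with Blnk, against 223 ± 9.504 with pMIG (SD, n = 3), a log2 fold change of 0.75 (adjusted p = 0.00363). Il9 stood at -0.14 and Il4 at -0.08. In the list of oncostatin M receptors and related genes, 1 of 8 rose and 1 fell, beside 2.51% and 1.1% of all genes. The median of this list was -0.0039. Lifr, the LIF receptor chain, which human oncostatin M also uses, rose to 265 ± 26.1 with Blnk, against 63.0 ± 3.61 with pMIG, a log2 fold change of 2.07 (adjusted p = 5.38e-05). Lif, a ligand of that receptor, was dim and fell to 40.3 ± 8.74 with Blnk, against 68.0 ± 3.61 with pMIG (-0.77, adjusted p = 0.0294). Lif passed only without Blnk array 1 (0.0108), and reached 0.141 without Blnk array 3. Osmr, the specific receptor chain of oncostatin M, named after its value was seen, was dim at 21 ± 1 with Blnk and 21.3 ± 1.53 with pMIG. Il6st, the chain shared by this receptor family, stood at -0.13 (adjusted p = 0.658), and the related ligand Clcf1 at 0.16 (adjusted p = 0.5).

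**Figure D4:**
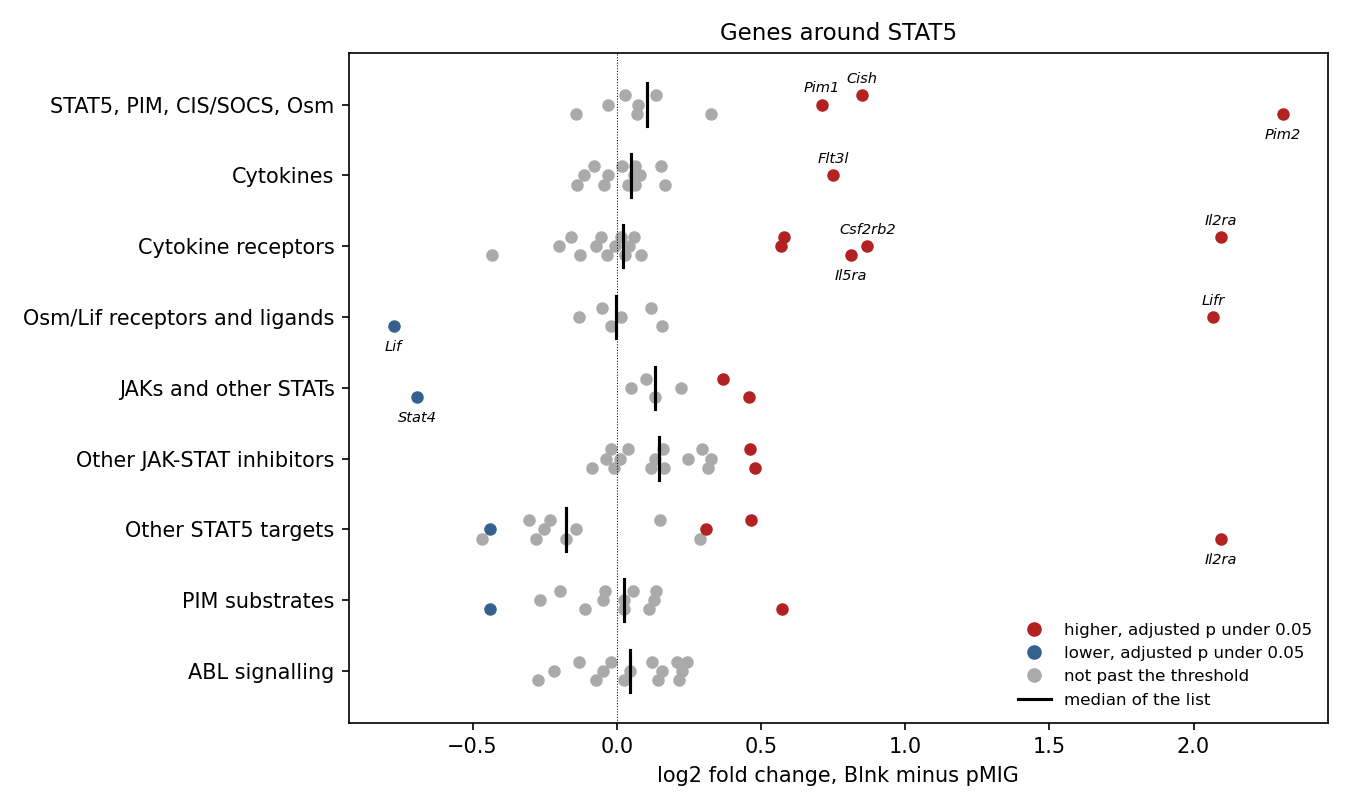
Log2 fold change, Blnk minus pMIG (horizontal axis), of the measured genes of each list (rows, 1 point per gene), coloured by the test, with a vertical bar at the median of each list. Pim2, Il2ra and Lifr stand near or above 2. The medians of the lists run from -0.18 (other STAT5 targets) to 0.15 (other JAK-STAT inhibitors).

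Of 7 Janus kinases and other STAT factors, 2 rose and 1 fell, beside 2.51% and 1.1% of all genes. The median log2 fold change of the 7 was 0.13. At an unadjusted p of 0.05, 3 were higher and 1 was lower (8.91% and 6.32% of all genes). Tyk2, a Janus kinase of interferon and IL12 signalling, read 407 ± 34.0 with Blnk and 295 ± 15.5 with pMIG (0.46, adjusted p = 0.0285; SD, n = 3). Stat2, which carries the type I interferon signal, read 771 ± 52.7 and 596 ± 20.8 (0.37, adjusted p = 0.0436). Stat4, the factor of IL12 signalling, fell to 74.3 ± 8.14 with Blnk, against 120 ± 5.51 with pMIG (-0.69, adjusted p = 0.00797). Jak1, which serves the IL7 receptor, stood at 0.10 (adjusted p = 0.523) and Stat6 at 0.05 (adjusted p = 0.813). Tyk2 and Stat2 passed only without Blnk array 1 (0.0416 and 0.0455), reaching 0.141 without pMIG array 3 and 0.156 without Blnk array 3, and Stat4 did not pass without pMIG array 3 (0.0634).

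Of 16 further inhibitors of the pathway, 2 rose, 0 fell and 14 did not pass, with a median log2 fold change of 0.15. At an unadjusted p of 0.05, 6 were higher and 0 lower (8.91% and 6.32% of all genes). Ptpn1, a phosphatase that acts on Janus kinases, read 771 ± 14.9 with Blnk and 560 ± 15.01 with pMIG (SD, n = 3; log2 fold change 0.46, adjusted p = 0.00821). Sh2b3, the adaptor LNK, read 562 ± 42.6 and 402 ± 3.06 (0.48, adjusted p = 0.015). Ptpn6, the phosphatase SHP1, stood at 0.29 (adjusted p = 0.0508) and Ptprc (CD45) at 0.25 (adjusted p = 0.116). Socs4, Socs5, Socs6 and Socs7, named after their values were seen, lay between -0.09 (Socs5) and 0.04 (Socs7). Ptpn1 did not pass without pMIG array 3 (0.0538), and Sh2b3 passed only without Blnk array 1 (0.0164), reaching 0.0892 without pMIG array 3.

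Other known STAT5 targets went both ways: of 13 measured, 3 rose and 1 fell, beside 2.51% and 1.1% of all genes. The median log2 fold change was -0.18. The list does not mark which targets STAT5 raises and which it lowers, so these directions do not measure STAT5 output. At an unadjusted p of 0.05, 4 were higher and 4 lower (8.91% and 6.32% of all genes). Besides Il2ra, the survival protein gene Mcl1 rose to 3084 ± 195 with Blnk, against 2234 ± 157 with pMIG (0.47, adjusted p = 0.0239; SD, n = 3), and the cyclin gene Ccnd2 rose by 0.31 on the log2 scale (adjusted p = 0.0392). Myc fell by 0.44 on the log2 scale (adjusted p = 0.0161). Ccnd3, a cyclin that pre-B cells need, stood at -0.28 (adjusted p = 0.087), and Bcl2, a survival gene, at -0.30 (adjusted p = 0.0617). Mcl1 and Ccnd2 passed in none of the 6 fits without 1 array (Mcl1 0.0568 without pMIG array 3 to 0.099 without Blnk array 3, Ccnd2 0.0908 without pMIG array 1 to 0.144 without pMIG array 3). Myc passed only without Blnk array 1 (0.0307), reaching 0.0914 without pMIG array 3.

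Most markers of other cell types lay below the array medians. Of 10 markers of T and NK cells, 0 passed (0 also at an unadjusted p of 0.05), and their summed intensity was 474 to 584 with Blnk and 457 to 559 with pMIG, led by Cd8a and Cd3e. Of 12 myeloid markers, 11 lay below the array medians. The Fc receptor gene Fcgr1 was the 1 that rose (0.74 on the log2 scale), beside 2.51% of all genes. The sum was 571 to 590 with Blnk and 457 to 505 with pMIG. Fcgr1 alone read 242 ± 13.9 and 145 ± 13.4 (SD, n = 3). No other myeloid marker passed, also at an unadjusted p of 0.05. Mpo, the granulocyte peroxidase, was 44.0 ± 3.46 with Blnk and 44.3 ± 4.04 with pMIG (SD, n = 3). Of 7 erythroid and megakaryocyte markers, 0 passed (0 also unadjusted), with sums of 268 to 313 and 273 to 302, led by Itga2b and Gp9. Of 10 stromal and endothelial markers 1 rose, Pecam1 (0.64), which B cells also express. At an unadjusted p of 0.05, 2 of the 10 were higher and 0 lower, beside 8.91% and 6.32% of all genes. The second was Cdh5 (0.26), which lay below the array medians and was named after its value was seen. The sums were 1176 to 1288 with Blnk and 927 to 1008 with pMIG. Pecam1 alone read 767 ± 40.6 and 493 ± 22.3, while Col1a1 stood at -0.12. No marker was at 0, and the part of the Fcgr1 and Pecam1 differences in the rise of Pim2, Cish and Pim1 was not tested.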

How the data were processed

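Gene expression was measured on 6 Affymetrix arrays. The values deposited by the authors are intensities on a linear scale, whole numbers from 3 to 22187. The submitters' processing notes name RMA without a version, and the return from log2 to the linear scale is inferred from the values. Of 35421 probes, 21789 carried 1 gene symbol in the platform annotation, 1621 several and 12011 were not listed. Taking the brightest single-gene probe gave 19938 genes.

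Log2 values, with nothing added, were compared as Blnk minus pMIG with lmFit and eBayes of limma 3.58.1 (R 4.3.3), group as the only term, no filter, and Benjamini-Hochberg adjustment over all genes at 0.05 (two-sided). The procedure was tested on simulated data. It recovered 38% of changes of 0.5 on the log2 scale and 92% of changes of 1, with 0 false calls. A real change of 0.5 or less can thus fail to pass. The number of arrays limits the precision. Named genes were the 10 members, Blnk, up to 4 called and 2 bright uncalled genes of each list, the 2 brightest markers of each cell type, and the 3 nearest profiles (mean log2 of at least 6, no placeholder names or receptor segments). The members and lists were chosen with earlier results of these data known. List entries without a single-gene probe were not analysed here.

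Alternatives were median centring, repeated quantile normalization, leaving out genes below the 40th percentile, 16 added before log2, averaged probes, an intensity trend, array weights, the replicate number as a block, and each array left out.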

Additional observations from a re-analysis of the deposited data

How the results depend on the processing

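Over 14 alternatives, Pim2 and Blnk kept their direction and call in all, Pim1 in 12 and Cish in 11 (Cish had adjusted p = 0.0519 with the replicate block), and 0 of the 10 genes passed downward in any. The number of the 10 that rose was 2 to 4, and 1 to 3 with an array left out. Values near 0 changed sign: with an array left out Stat5a ran from -0.113 (without pMIG array 2) to 0.062 (without Blnk array 2) and Pim3 from -0.062 (without Blnk array 3) to 0.125 (without pMIG array 1). With probes averaged, Socs3 was at 0.026, Cish minus Socs3 at 0.83 and Socs2 minus Socs3 at 0.074. Over the pairs, leaving out an array gave 1.56 to 1.64 (Pim2 minus Pim1), 2.19 to 2.37 (Pim2 minus Pim3) and 0.59 to 0.74 (Pim1 minus Pim3).

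Counts moved more. Over all genes 500 rose and 220 fell, against 807 and 421 without dim genes, 891 and 422 with an intensity trend, 208 and 81 with the replicate block, 359 lower with 16 added, and 195 to 304 higher and 72 to 133 lower with an array left out. Calls were 69.4% upward, and 61.9% after quantile normalization. Of the 102 genes in the pathway lists 14 rose and 3 fell, beside 2.51% and 1.1% of all genes. The replicate block gave 7 and 1. After quantile normalization, without dim genes, with 16 added or with the trend 6 fell, and 5 fell with array weights. From 6 to 12 rose and 0 to 3 fell with an array left out. With an array left out, fewer samples enter the test; otherwise the cause was not tested. The replicate numbers are not shown to pair the samples: deviations of same-numbered arrays correlated at -0.187, 0.0578 and -0.12 across genes.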

Other observations

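Known substrates of the PIM kinases were read at the transcript level. Of 13 measured, 1 rose and 1 fell, beside 2.51% and 1.1% of all genes, with a median log2 fold change of 0.02. At an unadjusted p of 0.05, 1 was higher and 3 were lower (8.91% and 6.32% of all genes). Nfatc1, a calcium-regulated factor, read 722 ± 40.6 with Blnk and 486 ± 20.3 with pMIG (SD, n = 3; log2 fold change 0.57, adjusted p = 0.00583) and passed with every array left out (up to 0.0361). The gene that fell was Myc, given above among STAT5 targets. The chemokine receptor Cxcr4 stood at 0.11 (adjusted p = 0.536) and the progenitor factor Myb at -0.27 (adjusted p = 0.091).

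Genes of ABL and its adaptors had no call: of 15 measured, 0 rose and 0 fell in limma under any of the 14 alternatives. At an unadjusted p of 0.05, 3 were higher and 2 lower, beside 8.91% and 6.32% of all genes. The lipid phosphatase Inpp5d (SHIP1) stood at 0.05 (adjusted p = 0.809) and the kinase subunit Pik3cd at 0.24 (adjusted p = 0.328). Abl1, named after its value was seen, read 1439 ± 55.4 with Blnk and 1576 ± 36.2 with pMIG (SD, n = 3; -0.13, adjusted p = 0.421), and the sources used here do not say whether its probe reads the BCR-ABL1 fusion.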
